A study of Homo sapiens with 4 samples.

Results

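Genes of the DNA damage response and of DNA repair were followed in 4 derivatives of PC-3, an established human cell line grown from a metastasis of prostate cancer, with 1 oligonucleotide array per derivative. The list held 30 genes, and a gene was measured through every probe set that the platform annotation gives to its symbol alone. This found 62 probe sets for 27 genes among 54613 probe sets and 19775 genes in all. The other 3 listed genes, BRCA2, FANCA and FANCD2, have no values here.

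The long-telomere group held the array LhTERTL, a line that overexpressed hTERT, the catalytic subunit of telomerase, and the array LhTERTL/cre+, a line with long telomeres and basal hTERT. The short-telomere group held the arrays mock and mock/cre+, both with short telomeres and basal hTERT. Cre is a recombinase that removes marked DNA, and all 4 lines were grown without further treatment. With 1 array for each line, a p-value weighs the group difference against the spread between the 2 lines of a group. It holds no spread between repeats of a line. The array number limits the precision, and the smallest two-sided p that exact permutation of 2 against 2 allows is 0.333.

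The deposited values are on the log2 scale, and each probe set had been centred on its median over the 4 arrays. A value of 0 therefore marks the middle of the 4 arrays for that probe set, the 2 middle arrays of a single probe set lie at equal distances on either side of 0, and no level of expression can be given. A gene's value is the mean of its probe sets. The array SDs over all probe sets were 0.335 for LhTERTL, 0.179 for LhTERTL/cre+, 0.209 for mock and 0.254 for mock/cre+, so LhTERTL stood furthest from the centre. TERT, the gene for hTERT, was read by 1 probe set at 3.54 in LhTERTL and -0.16 in LhTERTL/cre+, against 0.12 in mock and -0.12 in mock/cre+, while its other probe set stood at -0.66 in LhTERTL. Medians of leukocyte, fibroblast and endothelial marker lists lay between -0.04 and 0.07 on each array, and those of an epithelial list ran from 0.23 in LhTERTL to -0.10 in mock/cre+; without levels no marker can show which cells were present.

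Cells meet DNA breaks with a signalling layer and several repair routes. The kinases ATM and ATR sense breaks and stalled forks and pass the signal to CHEK2 and CHEK1, which hold the cell cycle. Homologous recombination resects a broken end, coats the single strand with RPA and copies the sister chromatid, so it works in S and G2 phase, and many of its genes are transcribed as cells enter S phase; end joining ligates ends at any phase. Several of these proteins also act at telomeres, where the Ku proteins, the MRE11 complex and the helicases WRN, BLM and RTEL1 help to keep or replicate the chromosome end.

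The largest differences were in genes of strand processing and of the Fanconi pathway. EXO1, an exonuclease of end resection and mismatch repair, stood at -1.30 in LhTERTL and 0.13 in LhTERTL/cre+, against -0.13 in mock and 0.72 in mock/cre+ (log2, centred). BLM, the helicase mutated in Bloom syndrome, stood at -0.68 and 0.25 in the same long-telomere arrays, against -0.25 in mock and 0.74 in mock/cre+. FANCI, a partner in the ubiquitinated Fanconi clamp on crosslinked DNA, stood at -0.90 in LhTERTL and 0.28 in LhTERTL/cre+, against -0.28 in mock and 0.55 in mock/cre+. In all 3 genes LhTERTL was the lowest array and mock/cre+ the highest, and the telomere groups overlapped because LhTERTL/cre+ lay above mock. Between the group means, EXO1 differed by -0.88 ± 0.58 (long minus short, log2, moderated SE, n = 2 per group), which is 1.84-fold lower, FANCI by -0.45 ± 0.51 and BLM by -0.46 ± 0.48. EXO1 was also the 1 gene of the 27 in the authors' deposited table of lower probe sets, which holds 0.236% of all probe sets. None of the 62 probe sets was in the authors' deposited table of higher ones, which holds 0.227%; the sources used here do not give how either was selected.

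**Figure D1:**
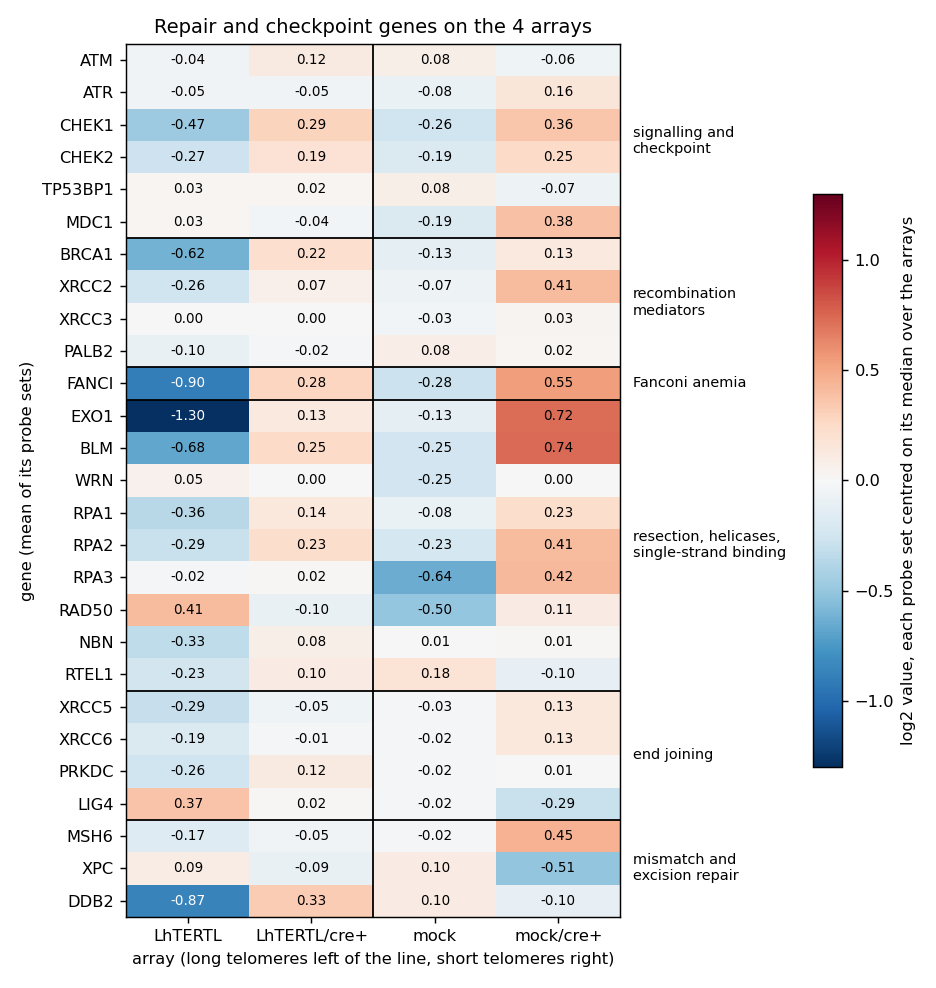
Centred log2 value of each of the 27 genes (rows, by role) on the 4 arrays (columns, long telomeres left of the line); colour and number give the mean of the gene's probe sets. LhTERTL holds the lowest value in 17 genes, down to -1.30 for EXO1, where it does in 30.6% of all genes, and mock/cre+ the highest in 15, where it does in 24% of all genes.

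The stretch around the start site is shown for EXO1, BLM and XRCC2, which stood lowest in LhTERTL and highest in mock/cre+, and for RAD50, which did not. The sequences are from RefSeq (GRCh38.p14), from 120 bases before the annotated start to 30 after it, on the gene's strand; capitals mark E2F-type words on either strand, which are the word TTCCCGC, the word TTCGCGC, the word TTGCCGC and the word TTGGCGC. E2F factors bind words of this kind at many genes of S phase.
EXO1 (chr1:241848084-241848233, plus strand): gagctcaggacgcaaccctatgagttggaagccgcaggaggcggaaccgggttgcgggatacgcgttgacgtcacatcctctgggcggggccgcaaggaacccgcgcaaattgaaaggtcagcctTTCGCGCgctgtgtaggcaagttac
BLM (chr15:90717226-90717375, plus strand): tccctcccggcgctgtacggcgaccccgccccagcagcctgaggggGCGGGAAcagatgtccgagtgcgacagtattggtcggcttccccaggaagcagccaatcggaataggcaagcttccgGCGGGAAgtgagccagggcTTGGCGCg
XRCC2 (chr7:152676112-152676261, minus strand): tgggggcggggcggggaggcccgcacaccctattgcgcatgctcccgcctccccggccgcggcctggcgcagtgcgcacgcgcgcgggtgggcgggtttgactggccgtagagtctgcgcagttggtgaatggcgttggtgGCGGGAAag
RAD50 (chr5:132556857-132557006, plus strand): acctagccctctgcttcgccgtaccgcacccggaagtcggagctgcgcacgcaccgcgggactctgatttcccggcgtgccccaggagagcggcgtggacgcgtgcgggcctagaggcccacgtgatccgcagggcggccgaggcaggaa

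With the annotated start as position 1, the words began at 6 in EXO1, at -74, 4 and 23 in BLM and at 22 in XRCC2. EXO1 has a second annotated start, whose window held none of the words. Over windows of 250 bases before to 50 after a start, with overlapping matches counted, 12 of the 20 measured genes with a window held at least 1 word, against 20.4% of the 15384 array genes with a window and 13.0% of all 35116 windows. The words stood in 6 of the 8 genes with a window that were lowest in LhTERTL and highest in mock/cre+, CHEK1 and CHEK2 being those without, and in 6 of the 12 with another order of arrays, among them XPC, DDB2 and MDC1. The CHR words of late cell cycle genes (TTTGAA or TTCGAA, either strand) stood in 3 of the 20, against 17.2% of array genes. Such matches are letters in a window and were not tested for binding.

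Which repair genes differ with telomere length was read from the long-telomere arrays against the short-telomere ones. Of the 27 genes, 19 had a lower and 7 a higher mean in the long-telomere arrays, with a median difference of -0.11 (log2, long minus short) against -0.01 over all 19775 genes. In both Cre-matched pairs (LhTERTL over mock, LhTERTL/cre+ over mock/cre+) 12 genes were lower, where 22.1% of all genes were, and 2 were higher, where 20.5% were. The 12 were CHEK1, CHEK2, XRCC2, XRCC5, XRCC6, FANCI, EXO1, BLM, PALB2, RPA1, RPA2 and MSH6, and the 2 were LIG4 and WRN. Both long-telomere arrays lay below both short ones in 3 genes (XRCC5, PALB2 and MSH6), which is 11.1% of the 27 beside 11.7% of all genes. They lay above in 2 (LIG4 and WRN), which is 7.41% beside 11.4% of all genes. The margins were narrow, as in WRN with 0.002 in LhTERTL/cre+ and -0.002 in mock/cre+. In XRCC5, MSH6 and LIG4 the groups overlapped in some single probe sets and were apart only in the gene's mean and in others.

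None of the 27 genes and none of the 62 probe sets passed the test (limma, two-sided, Benjamini-Hochberg over all features; adjusted p = 1 for the lowest of either), and 0% of all genes and 0% of all probe sets did. With no adjustment, limma's p was under 0.05 in 0 of the 27 genes, where it was in 0.789% of all genes, and in 1 of the 62 probe sets, where it was in 1.27% of all. The median difference depended on LhTERTL: it was 0.07 without that array and -0.04 without mock/cre+, and -0.27 and -0.23 without LhTERTL/cre+ and without mock; leaving out an array unbalances the groups for Cre.

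**Figure D2:**
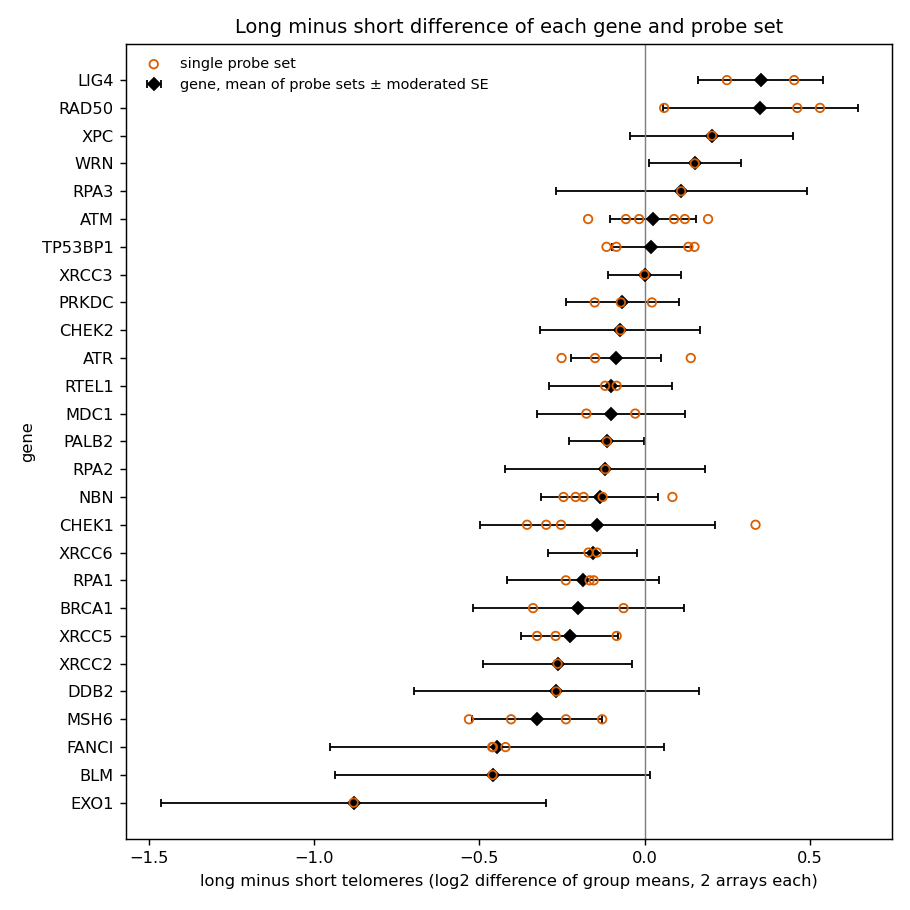
Long minus short difference of group means (log2, 2 arrays each) for each gene: diamonds with bars are the gene's mean over probe sets ± its moderated SE, and open circles are single probe sets. EXO1 lies lowest at -0.88, LIG4 and RAD50 highest at 0.35 each, and the probe sets of CHEK1 spread from -0.36 to 0.34.

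Among the signalling and checkpoint genes, the effector kinases differed between arrays more than the sensors ATM and ATR in the mean of their probe sets. CHEK1, the kinase that ATR activates, stood at -0.47 in LhTERTL and 0.29 in LhTERTL/cre+, against -0.26 in mock and 0.36 in mock/cre+. Of its 4 probe sets, 3 differed by -0.36, -0.30 and -0.25 between long and short arrays. The remaining one differed by 0.34, and was the 1 probe set under 0.05 before adjustment (limma, adjusted p = 1). CHEK2, which ATM activates, stood at -0.27 and 0.19 in LhTERTL and LhTERTL/cre+, against -0.19 in mock and 0.25 in mock/cre+, in the same order of arrays as CHEK1. ATM ran from -0.06 to 0.12 over the arrays in this mean, and its 6 probe sets split evenly, 3 lower and 3 higher with long telomeres. Its single probe sets ran wider, as from -0.11 in mock/cre+ to 0.39 in LhTERTL/cre+, whereas CHEK2 has 1 probe set. ATR ran from -0.08 to 0.16, and TP53BP1, which shields ends from resection, from -0.07 to 0.08. MDC1, the scaffold that binds phosphorylated histone H2AX, stood at 0.03 in LhTERTL and -0.04 in LhTERTL/cre+, against -0.19 in mock and 0.38 in mock/cre+, so its 2 short-telomere arrays were the extremes.

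Of the mediators of homologous recombination, BRCA1, which promotes resection, stood at -0.62 in LhTERTL and 0.22 in LhTERTL/cre+, against -0.13 in mock and 0.13 in mock/cre+. The low value was that of LhTERTL alone, and it was larger in 1 probe set (-0.89) than in the other (-0.34), which carries the _x_at suffix of probes shared with other transcripts. XRCC2, which acts in strand exchange, stood at -0.26 in LhTERTL and 0.07 in LhTERTL/cre+, against -0.07 in mock and 0.41 in mock/cre+, through 1 probe set with that suffix. PALB2, which bridges BRCA1 and BRCA2, ran from -0.10 to 0.08 and XRCC3, which acts in the same step, from -0.03 to 0.03. The arrays thus lay further apart in BRCA1 and XRCC2 than in PALB2 and XRCC3.

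The 3 subunits of RPA, the single-strand binding complex, were all highest in mock/cre+ but differed in the array that was lowest. RPA1 stood in the mean of its probe sets at -0.36 in LhTERTL and 0.14 in LhTERTL/cre+, against -0.08 in mock and 0.23 in mock/cre+. Of its probe sets, 1 was instead highest in mock, at 0.14, with -0.02 in mock/cre+. RPA2 stood at -0.29 and 0.23 in LhTERTL and LhTERTL/cre+, against -0.23 in mock and 0.41 in mock/cre+. RPA3 stood at -0.02 and 0.02 in the long-telomere arrays, against -0.64 in mock and 0.42 in mock/cre+. LhTERTL was thus lowest for RPA1 and RPA2, whereas mock was lowest for RPA3, which has 1 probe set.

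RAD50 and NBN, which form a complex with the nuclease MRE11 at broken ends, went opposite ways in LhTERTL. RAD50 stood at 0.41 in LhTERTL and -0.10 in LhTERTL/cre+, against -0.50 in mock and 0.11 in mock/cre+, and its 3 probe sets were all higher with long telomeres, by 0.06 to 0.53. NBN stood at -0.33 in LhTERTL and 0.08 in LhTERTL/cre+, against 0.01 in mock and 0.01 in mock/cre+; 4 of its 5 probe sets were lower with long telomeres and 1 was 0.08 higher. Of the other helicases, WRN, mutated in Werner syndrome, stood at 0.05 and 0.00 in LhTERTL and LhTERTL/cre+, against -0.25 in mock and 0.00 in mock/cre+. RTEL1, which unwinds telomeric loops, stood at -0.23 in LhTERTL and 0.10 in LhTERTL/cre+, against 0.18 in mock and -0.10 in mock/cre+; both its probe sets carry the _x_at suffix.

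Among the end joining genes, LIG4 differed in the opposite direction to the other 3. XRCC5 and XRCC6 encode the Ku heterodimer that caps broken ends, and PRKDC the kinase it recruits. XRCC5 stood at -0.29 in LhTERTL and -0.05 in LhTERTL/cre+, against -0.03 in mock and 0.13 in mock/cre+, and all 3 of its probe sets were lower with long telomeres. XRCC6 ran from -0.19 in LhTERTL to 0.13 in mock/cre+ and PRKDC from -0.26 in LhTERTL to 0.12 in LhTERTL/cre+. LIG4, the ligase of the pathway, was highest in LhTERTL, with 0.37 in LhTERTL and 0.02 in LhTERTL/cre+, against -0.02 in mock and -0.29 in mock/cre+, with both probe sets higher by 0.25 and 0.45. Its long minus short difference was 0.35 ± 0.19 (log2, moderated SE, n = 2 per group). This gave the smallest p of the 27 genes, which did not pass the test (limma, adjusted p = 1).

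Of the 3 genes of mismatch and nucleotide excision repair, each had its own pattern. MSH6, which recognises mismatches, stood at -0.17 in LhTERTL and -0.05 in LhTERTL/cre+, against -0.02 in mock and 0.45 in mock/cre+. In this mean mock/cre+ stood apart, but the 4 probe sets of MSH6 ran from -0.01 to 0.94 on that array. XPC, which recognises distorted DNA, stood at 0.09 and -0.09 in LhTERTL and LhTERTL/cre+, against 0.10 in mock and -0.51 in mock/cre+. DDB2, which finds ultraviolet damage in chromatin, stood at -0.87 in LhTERTL and 0.33 in LhTERTL/cre+, against 0.10 in mock and -0.10 in mock/cre+, so LhTERTL alone was low. XPC and DDB2 are known targets of p53, which PC-3 lacks in functional form, and a list of 17 measured p53 targets had medians between -0.05 and 0.05 on the 4 arrays. The 17 do not take in DDB2, which stood at -0.97 in LhTERTL over mock. Of the 17, 3 were at least 1.5-fold higher in LhTERTL over mock, CDKN1A among them, and 0 were lower. Over all genes these shares were 5.73% and 3.73%.

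The roles compared as follows. The median long minus short difference (log2) was -0.08 over the 6 signalling and checkpoint genes, -0.16 over the 4 recombination mediators, -0.12 over the 9 genes of resection, helicases and single-strand binding, -0.11 over the 4 end joining genes and -0.27 over the 3 genes of mismatch and excision repair, beside -0.45 for FANCI alone. The SD of a role's median between the arrays within a group was 0.18, 0.12, 0.30, 0.12 and 0.12 in the same order. That SD describes a role's median on each array, whereas the differences above are medians over genes, so neither was weighed against the other. The mismatch and excision median is DDB2's own value, and it was -0.06 without DDB2 (left out after the values were seen). These medians turned sign or moved by over 1.5 times when LhTERTL was left out, to 0.06, -0.04, 0.07, 0.03 and 0.11 in the same order and 0.14 for FANCI; leaving out each other array also moved several of them past that limit. Differences between roles were not tested.

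The arrays with Cre were next set against those without, because LhTERTL/cre+ and mock/cre+ stood together in many of these genes; this comparison was chosen after the values were seen. Both Cre arrays lay above both arrays without Cre in 13 of the 27 genes, where 17.4% of all genes did, and below in 2 (TP53BP1 and XPC), where 20.1% did. The 13 were CHEK1, CHEK2, BRCA1, XRCC2, XRCC6, PRKDC, FANCI, EXO1, BLM, RPA1, RPA2, RPA3 and NBN. Some margins were narrow, as in NBN with 0.015 in mock/cre+ and 0.008 in mock. In CHEK1, RPA1, XRCC6, PRKDC and NBN the groups overlapped in some single probe sets. The mean difference (Cre minus no Cre, log2, moderated SE, n = 2 per group) was 1.14 ± 0.46 for EXO1, 0.999 ± 0.25 for FANCI, 0.95 ± 0.24 for BLM and 0.69 ± 0.13 for CHEK1. None passed the test (limma, lowest adjusted p of the 27 genes = 0.772), and 0% of all genes and 0% of all probe sets did. At an unadjusted p under 0.05 (limma) stood 7 of the 27 genes, all higher with Cre (CHEK1, CHEK2, BRCA1, FANCI, BLM, RPA1 and RPA2), where 6.29% of all genes stood in either direction, and 12 of the 62 probe sets, where 6.13% of all did.

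Genes known to be transcribed with S phase were separated from the rest from textbook knowledge, after the values were seen. These replication-linked genes were BRCA1, CHEK1, FANCI, EXO1, BLM, XRCC2, RPA1, RPA2, RPA3 and MSH6 among those measured. Their median stood at 0.18 in LhTERTL/cre+ and 0.41 in mock/cre+, against -0.42 in LhTERTL and -0.18 in mock. The Cre arrays lay above the others in 9 of these 10 genes, MSH6 being the exception, and in 4 of the 17 others. Over all genes this share was 17.4%. The median difference with Cre was 0.56 over the 10 genes and 0.10 over the 17, beside -0.02 over all genes. It stayed between 0.54 and 0.70 for the 10 when any 1 array was left out, whereas their long minus short median of -0.23 was 0.10 without LhTERTL and -0.03 without mock/cre+. The difference between the 2 classes was not tested.

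**Figure D3:**
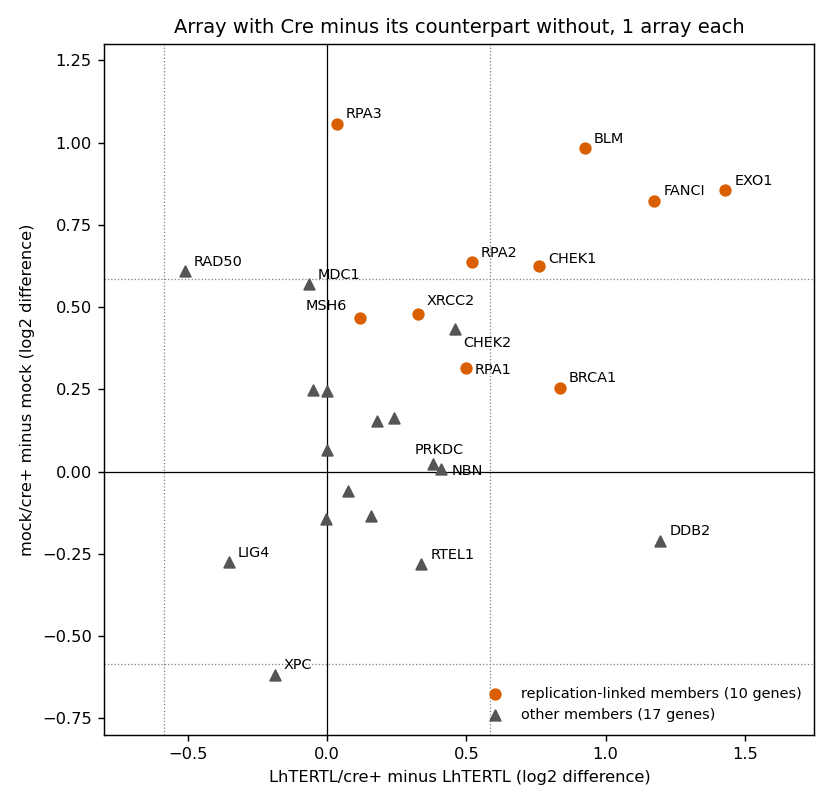
Log2 difference of each gene between LhTERTL/cre+ and LhTERTL (x axis) and between mock/cre+ and mock (y axis), 1 array each; dotted lines mark 1.5-fold and genes over 0.3 on either axis are named. EXO1, FANCI, BLM and CHEK1 lie past 1.5-fold higher on both axes, while DDB2 does so on the x axis and RPA3 on the y axis.

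The single steps of the design have 1 array on each side and no test, so genes at least 1.5-fold apart were counted. In LhTERTL/cre+ over LhTERTL, which takes in both Cre and the return to basal hTERT, 6 genes were higher (EXO1 by 1.43, DDB2 by 1.20, FANCI by 1.18, BLM by 0.93, BRCA1 by 0.84 and CHEK1 by 0.76 on the log2 scale) and 0 lower, where 5.08% and 5.77% of all genes were. In mock/cre+ over mock, where hTERT was basal in both, 7 were higher (RPA3 by 1.06, BLM by 0.98, EXO1 by 0.85, FANCI by 0.82, RPA2 by 0.64, CHEK1 by 0.62 and RAD50 by 0.61) and XPC was lower at -0.62, where 5.95% and 3.31% of all genes were. EXO1, FANCI, BLM and CHEK1 thus stood past 1.5-fold in both steps, while DDB2 did so in the first and stood at -0.21 in the second.

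In LhTERTL over mock, 2 genes were at least 1.5-fold higher (RAD50 by 0.91 and RPA3 by 0.62), where 5.73% of all genes were, and 3 lower (EXO1 at -1.17, DDB2 at -0.97 and FANCI at -0.62), where 3.73% were. In LhTERTL/cre+ over mock/cre+, the pair at basal hTERT, none was higher and EXO1 was lower at -0.59, where 1.88% and 3.55% of all genes were. In LhTERTL/cre+ over mock, RPA3 was higher by 0.66 and none was lower, where 1.66% and 0.738% of all genes were. The replication-linked median in that last contrast was 0.40, so the line with long telomeres and basal hTERT stood above mock in these genes while it stood below mock/cre+ by a median of -0.31. These contrasts share arrays, so their counts are not independent.

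Other repair genes were read from lists of the same pathways. Over 101 measured genes of recombination, Fanconi, checkpoint, end joining, mismatch, nucleotide excision and base excision repair that are not among the 27, 44 were lower and 17 higher in both Cre-matched pairs with long telomeres, where 22.1% and 20.5% of all genes were. Both Cre arrays lay above the others in 48 and below in 8, where they did in 17.4% and 20.1% of all genes. None passed the long against short test (limma, Benjamini-Hochberg over all genes), and in none was the p under 0.05 before adjustment. The median with Cre over without was 0.48 over 6 mismatch repair genes, 0.335 over 14 Fanconi genes, 0.32 over 20 recombination genes, 0.25 over 18 genes of base excision and direct repair and 0.20 over 18 checkpoint genes, against 0.01 over 12 end joining and -0.03 over 13 nucleotide excision repair genes. The mismatch repair value takes in PCNA, the sliding clamp of replication, at 1.46 and the polymerase subunit gene POLD1 at 0.92. Both Cre arrays lay above the others in 3 of those 6 genes. The nucleotide excision value joins steps of opposite sign, with a median of 0.11 in LhTERTL/cre+ over LhTERTL and -0.23 in mock/cre+ over mock.

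In each list the 2 genes with the largest long minus short difference among those of one direction in both pairs were read singly. UNG, the uracil glycosylase, differed by -0.92 ± 0.69 (long minus short, log2, moderated SE, n = 2 per group), FANCB, of the Fanconi core complex, by -0.76 ± 0.56, and CDC25A, the phosphatase that CHEK1 targets for destruction, by -0.71 ± 0.48. The flap nuclease FEN1 stood at -0.70 ± 0.55, RMI2, a BLM partner, at -0.69 ± 0.58, RAD54B, a recombination translocase, at -0.61 ± 0.55, POLD1, the catalytic subunit of polymerase delta, at -0.55 ± 0.46, and TOPBP1, the activator of ATR, at -0.48 ± 0.29. All 8 were lowest in LhTERTL and highest in mock/cre+, an order that their choice by size and direction favours. Smaller differences were those of POLQ, the polymerase of microhomology end joining, at -0.31 ± 0.24, and MAD2L2, of the shieldin complex, at -0.25 ± 0.21. UHRF1, which binds hemimethylated DNA and crosslinks, stood at -1.13 ± 0.91. Higher with long telomeres were the excision repair nuclease ERCC5 at 0.33 ± 0.17 and the damage verification factor XPA at 0.22 ± 0.14, neither of which passed the test.

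**Figure D4:**
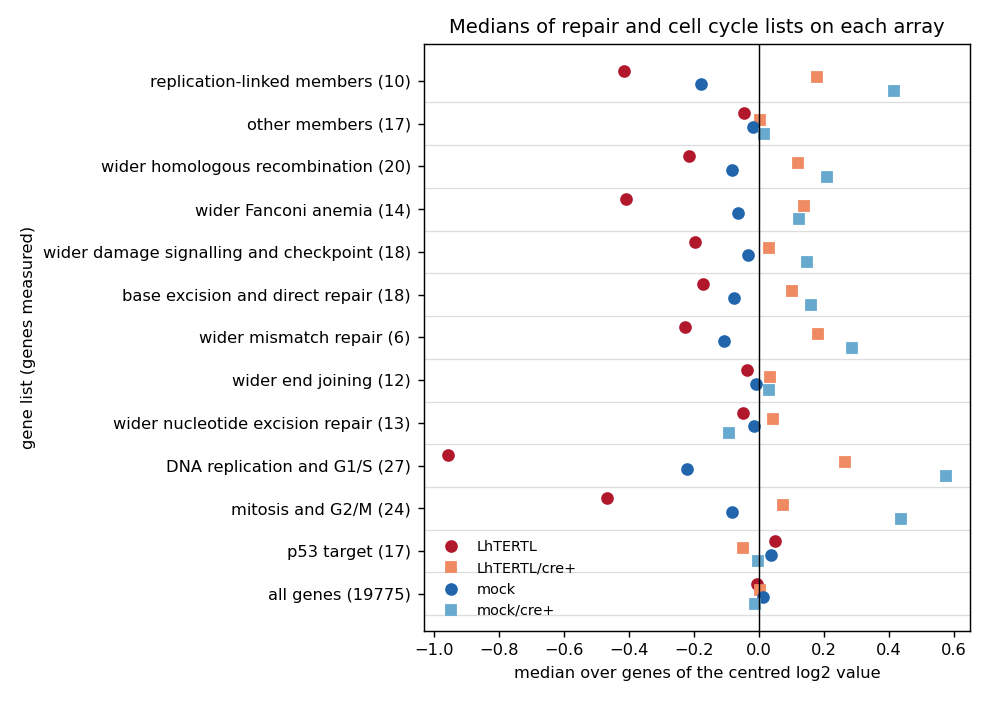
Median centred log2 value of each gene list (rows, number of genes measured in brackets) on the 4 arrays; red marks are long-telomere and blue marks short-telomere arrays, squares are arrays with Cre and circles those without. The replication-linked repair genes have the same order of arrays as the DNA replication list, with LhTERTL lowest (-0.42 and -0.96) and mock/cre+ highest (0.41 and 0.57).

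Genes of the cell cycle had the same order of arrays as the replication-linked repair genes. The DNA replication and G1/S list stood at medians of 0.26 in LhTERTL/cre+ and 0.57 in mock/cre+, against -0.96 in LhTERTL and -0.22 in mock (27 genes). Both Cre arrays lay above the others in 24 of its genes, where they did in 17.4% of all genes. The mitosis and G2/M list stood at 0.07 and 0.44 in the Cre arrays, against -0.47 in LhTERTL and -0.08 in mock (24 genes), with 19 such genes. PCNA, the sliding clamp of replication, stood at 0.45 in LhTERTL/cre+ and 1.29 in mock/cre+, against -0.73 in LhTERTL and -0.45 in mock. The proliferation marker MKI67 stood at 0.19 and 0.76 in the Cre arrays, against -0.39 in LhTERTL and -0.22 in mock. The 13 genes of the E2F family had medians of 0.04 in LhTERTL/cre+ and 0.06 in mock/cre+, against -0.11 in LhTERTL and 0.03 in mock. Both Cre arrays lay above the others in 6 and below in 3, where they did in 17.4% and 20.1% of all genes. Of the 2 named by size and direction, the activator E2F1 was highest in mock/cre+ at 0.27 and lowest in LhTERTL at -0.76, and the repressor E2F8 ran in the same order, from -1.61 in LhTERTL to 1.22 in mock/cre+. RRM2 and CCNE2 of the G1/S list, CCNA2 and KIF20A of the G2/M list differed by -1.13, -1.08, -0.72 and -0.57 (long minus short, log2). CDKN1A, the inhibitor of cyclin-dependent kinases, ran the other way, at -0.34 in LhTERTL/cre+ and -0.57 in mock/cre+, against 2.09 in LhTERTL and 0.34 in mock; TP53I3, another p53 target, was highest in LhTERTL at 0.54. The part of these cell cycle differences in the values of the repair genes was not tested.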

How the data were processed

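Total RNA of 4 PC-3 derivatives was column-purified, biotin-labelled and hybridised to 1 array each, per the labels' protocols. The deposited log2 values were made by the authors with RMA (per the submitters' processing notes, with no version); each probe set's median over the 4 arrays was 0 within 1e-05, so rows had been centred and levels are unknown. In the authors' deposited table of lower probe sets, 2 column headings are exchanged against the main table (LhTERTL with mock/cre+), so both lists were used for probe set names only.

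Of 54675 probe sets, 62 controls were left out; 41091 carried 1 gene symbol in the platform annotation, 1801 several, and 11721 were unnamed here. Entrez numbers matched 41037 to RefSeq genes (GRCh38.p14), which changed 0 symbols. Genes are the mean of their probe sets. Groups were taken from the labelled telomere length; Cre-matched pairs follow the line names. Differences were tested with lmFit and eBayes without a trend (limma 3.58.1, R 4.3.3), two-sided, on all probe sets and on all genes, with Benjamini-Hochberg adjustment at 0.05 and 2 residual degrees of freedom; the fits were tested on simulated data. Values after ± are moderated standard errors. Python 3.11.15, numpy 2.4.6, pandas 2.3.3 and matplotlib 3.10.9 did the rest. Promoter sequences are RefSeq's.

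The members, the gene lists and their division into roles were chosen with earlier results of these data known, so lists are described by counts and medians without a test. Named genes were all measured members, 2 per wider list by a rule of size and direction, and PCNA, MKI67, CDKN1A and TERT. Alternatives were a Cre term, a trend, recentred arrays, the probe set of highest SD, no _x_at or _s_at probe sets, a 2-fold limit and leaving out each array.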

Additional observations from a re-analysis of the deposited data

Results flagged for a closer look

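In 5 genes the long-telomere array stood on opposite sides of its short-telomere counterpart in the 2 Cre-matched pairs, each time by more than the median size of that difference over all genes (0.137 with Cre and 0.169 without Cre, log2). The same held for 19.2% of all genes, so 5 of 27 is near that share. RAD50 stood at 0.912 in LhTERTL over mock and -0.209 in LhTERTL/cre+ over mock/cre+. RPA3 stood at 0.623 and -0.401 in the same pairs, and MDC1 at 0.215 and -0.42. DDB2 went the other way, at -0.971 in LhTERTL over mock and 0.436 in LhTERTL/cre+ over mock/cre+, and so did RTEL1 at -0.412 and 0.208. With 1 array on each side, the difference between the pairs was not tested.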

How the results depend on the processing

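No gene or probe set of the list passed the long against short test under any alternative run. The median long minus short difference of the 27 genes (-0.114) ran from -0.271 to 0.0675 when 1 array was left out, 0.0675 being without LhTERTL, and was -0.119 with the probe set of highest SD, -0.0845 without _x_at and _s_at probe sets and -0.112 on recentred arrays. With 1 array left out it ran from -0.249 to 0.0893 for signalling and checkpoint genes, -1.03 to 0.14 for FANCI, -0.343 to 0.0675 for resection and helicases (-0.017 without _x_at and _s_at probe sets), -0.289 to -0.0386 for recombination mediators, -0.252 to 0.0281 for end joining, -0.384 to 0.11 for mismatch and excision repair, -0.479 to 0.0952 for the replication-linked genes and -0.0862 to 0.0675 for the others, which stood at -0.0164 without _x_at and _s_at probe sets. The median Cre minus no Cre difference ran from 0.133 to 0.324 over the 27 genes (0.343 with the probe set of highest SD) and from 0.0499 to 0.145 over those not replication-linked (0.0394 without _x_at and _s_at probe sets). At 2-fold, 0 genes were higher and 1 lower in LhTERTL over mock, 0 lower in LhTERTL/cre+ over mock/cre+, 3 higher in LhTERTL/cre+ over LhTERTL, 1 higher and 0 lower in mock/cre+ over mock, and 0 higher in LhTERTL/cre+ over mock. With the probe set of highest SD, 2 were at least 1.5-fold lower in LhTERTL/cre+ over mock/cre+, 1 lower in LhTERTL/cre+ over LhTERTL and 3 higher in LhTERTL/cre+ over mock. The cause of these shifts was not tested, and the shares of all genes at 2-fold or with the probe set of highest SD were not counted. The Cre comparison, the replication-linked class and their alternatives were chosen after seeing the data. The labels give no replicate numbers; with Cre status as a term, which pairs the lines by name, 0 genes and 0 probe sets of the list passed. Signal over background could not be read from centred values.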
